A study of Mus musculus with 27 samples.

Results

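The subunits of the glutamate, GABA and glycine receptors were followed in whole mouse retina across 4 genotypes. The set comprised 36 listed genes, matched by gene symbol in the table of raw counts. All 36 were found, and Glra4 was left out because it was listed at 0 in all 27 libraries, which left 35 subunits of the 55487 genes in the table. Its span on the X chromosome (chrX:136757674-136780141, GRCm38) was covered to 100% by other annotated genes, where the counting drops reads, so its 0 is not a measure of expression. The set held 4 AMPA subunits (Gria1 to Gria4), 4 kainate subunits (Grik2 to Grik5), 5 NMDA subunits (Grin1, Grin2a to Grin2d), the delta receptor Grid1, 5 metabotropic glutamate receptors (Grm2, Grm3, Grm4, Grm7, Grm8), 9 GABA-A subunits, 3 GABA rho subunits and 4 glycine receptor subunits.

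Photoreceptors and bipolar cells of the retina signal with glutamate, whereas horizontal and most amacrine cells signal with GABA or glycine. AMPA and kainate receptors are glutamate-gated cation channels that carry the fast input to OFF bipolar, horizontal, amacrine and ganglion cells, and NMDA receptors add a slower component in the inner retina. Metabotropic glutamate receptors act through G proteins, and most of those in this set are autoreceptors of nerve terminals. GABA-A, GABA rho and glycine receptors are chloride channels that carry inhibition, with rho subunits known best from bipolar cell terminals.

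Heterozygous knock-out of Gne was combined with complete knock-out of C3. The product of Gne catalyses the first steps of sialic acid synthesis, which supplies the terminal sugar of many cell surface glycans. C3 is the protein on which the pathways of complement activation converge. The 27 mice were 9 months old and comprised 7 wildtype (Gne+/+, C3+/+), 7 Gne+/- (C3+/+), 7 C3-/- (Gne+/+) and 6 Gne+/- C3-/- animals. The labels give both losses as genotypes of the animal and name no promoter, Cre or targeted cell type. The stated question was how reduced sialylation acts on the retina and whether complement takes part. Each library came from a separate mouse and from 100 ng of total RNA, prepared with a kit that reads the 3′ end of transcripts. The labels name 2 sequencing runs. Run 1 held 5 wildtype, 5 Gne+/-, 4 C3-/- and 4 Gne+/- C3-/- libraries, and run 2 held 2, 2, 3 and 2.

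The libraries held 13.5 to 34.2 M counts. Levels are given as CPM, counts per M counts on TMM-scaled library sizes. Gne lay between 47.0 and 161.6 CPM in wildtype and between 13.1 and 56.7 CPM in Gne+/- libraries. The pooled Gne effect on Gne itself was −1.58 ± 0.0951 (log2 ± SE). The Gne ranges span both runs, and Gne in run 2 differed from run 1 by −1.48 ± 0.105. C3 was at most 3.6 CPM in the 13 libraries labelled C3-/-, against at least 53.9 CPM in the others. Markers of rods, cones, bipolar, amacrine, horizontal, ganglion and Müller glial cells were all detected except Pcp2 and Nefl. Pcp2 and Nefl were at 0 in every library, and the reason was not tested, so their 0 is not read as absence of expression. The library of Gne+/- mouse 4 held the highest summed lens markers, 1769 CPM for 11 genes, against 1.19 to 833 CPM in the other libraries. The labels give no sex. The mean of 4 Y-linked genes was over 10 CPM in 0 of 5 wildtype, 2 of 5 Gne+/-, 4 of 4 C3-/- and 2 of 4 Gne+/- C3-/- libraries of run 1. In run 2 it was over 10 CPM in 2 of 2, 2 of 2, 0 of 3 and 2 of 2 libraries, so Y-linked expression moved with the genotype groups within each run. A covariate for it, added after seeing the data, left 0 of 35 subunits called in each of the 8 genotype comparisons.

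All 35 subunits passed the filter on low counts. Levels of different genes are given per kb of gene span, because reads in introns were counted too, and also as plain CPM. The kit reads the 3′ end of transcripts, so CPM without division by length had been planned for comparing genes. Division by span lowers long genes, and the order of the subunits depends on the scale. Per kb the highest were Gabrr2 with 3.79 CPM per kb, Grin1 with 2.24, Glrb with 1.86, Glra1 with 1.75 and Gria2 with 1.66. The lowest was Gabra5 with 0.0031 CPM per kb, and Grik4 and Grik3 followed with 0.0298 and 0.0404 CPM per kb. Without the division by length, Grm8 took the highest place with a mean of 550.2 CPM over all libraries, and it was 11th of 35 per kb. Gria4 with 315.2 CPM and Gria2 with 201.8 CPM followed, while Grin1 was 17th by CPM and 2nd per kb. The 3′ ends of 6 subunits lie partly in stretches shared with other annotated genes. Many of the other subunits share small parts of their whole span, at most 4.60% for Grin2b. The final 1000 bases of the gene were shared to 96.1% for Grin1, to 100% for Grin2d, Gabra5 and Gabrr3, to 47% for Grm2 and to 39.2% for Glra1, so the levels of these 6 genes are uncertain.

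**Figure D1:**
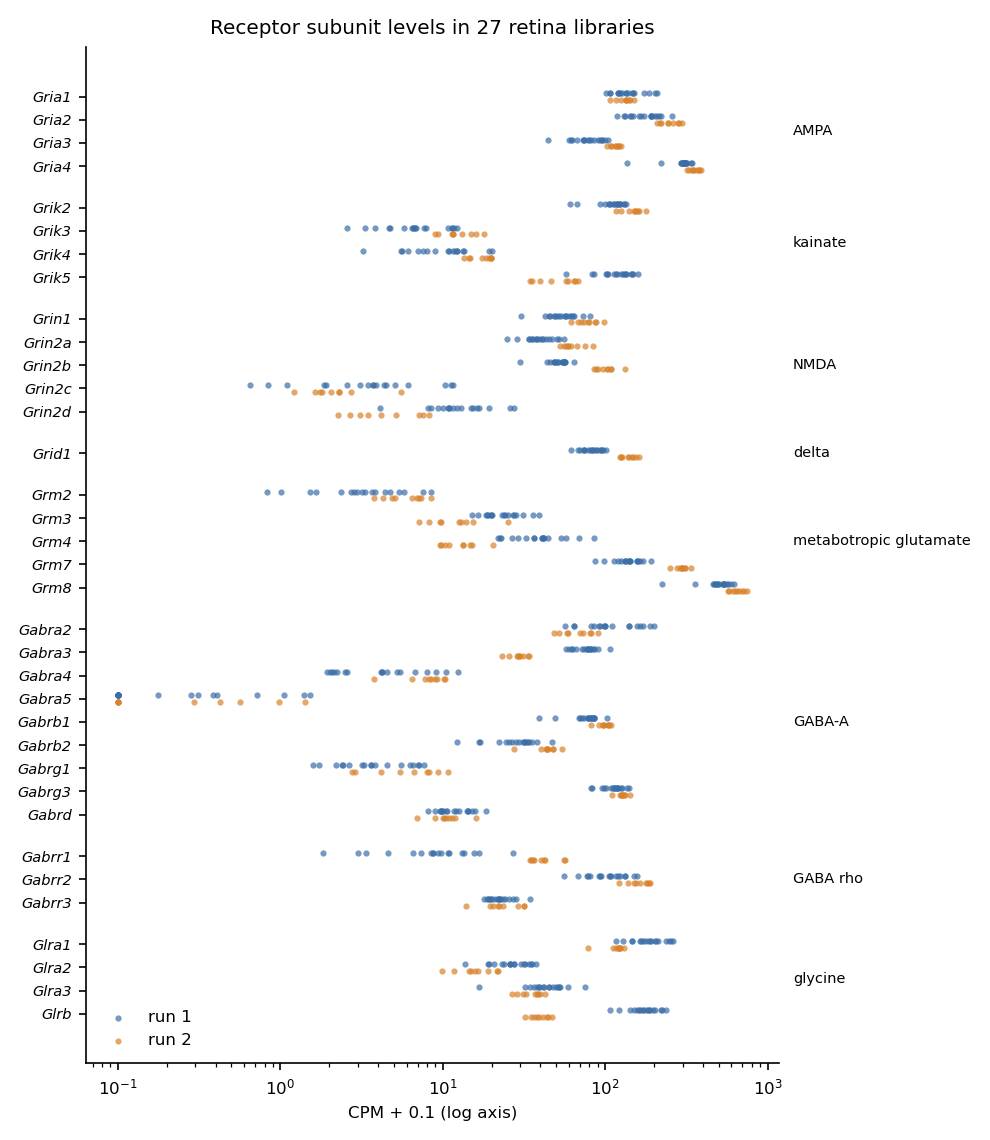
Levels of the 35 receptor subunits in the 27 retina libraries, on a log axis of CPM + 0.1, with 1 point per library and the sequencing runs in separate colours. Grm8 lies highest in every library, and Gabra5 lies at or near 0. Glrb, Gabra3 and Grm4 show run 2 wholly to the left of run 1, and Gabrr1, Grm7, Grin2b and Grid1 show it wholly to the right.

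No subunit differed between genotypes past the threshold. The quasi-likelihood test of edgeR, with p-values adjusted over all 17409 tested genes, called 0 of 35 subunits in Gne+/- against wildtype, where it called 0.00574% of all genes. It called 0 of 35 in Gne+/- C3-/- against C3-/- (0.00574% of all genes) and 0 of 35 in the Gne effect pooled over both C3 genotypes (0.00574%). For loss of C3 the counts were 0 of 35 in C3-/- against wildtype (0.167%), 0 of 35 in Gne+/- C3-/- against Gne+/- (0.19%) and 0 of 35 in the pooled C3 effect (0.569%). The difference of the Gne effects without and with C3, which is the interaction of the genotypes, gave 0 of 35 (0%), and Gne+/- C3-/- against wildtype gave 0 of 35 (0.155%). DESeq2 and limma-voom called 0 subunits in all 8 comparisons as well.

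At an unadjusted p under 0.05 the counts were also small. Grik2 alone passed it in Gne+/- against wildtype (1 of 35, against 5.76% of all genes), and none passed it in Gne+/- C3-/- against C3-/- (1.35%) or in the pooled Gne effect (3.3%). Gabra2 passed it in C3-/- against wildtype (4.49% of all genes), Grid1 in Gne+/- C3-/- against Gne+/- (6.4%) and again in the interaction (3.18%). Gabra2 and Gabrr1 passed it in the pooled C3 effect (7.67%), and Gabrr1, Gabra2 and Gria2 in Gne+/- C3-/- against wildtype (4.96%). Several of these comparisons share libraries, so they do not count separately.

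The size of a difference that these data leave room for follows from the 95% intervals. In the pooled Gne effect the interval of 34 of 35 subunits lay within a 2-fold change either way, and that of 28 within 1.5-fold. In the pooled C3 effect 33 lay within 2-fold and 26 within 1.5-fold. The interaction was the least precise, with 24 within 2-fold and 14 within 1.5-fold. Both bounds were chosen after the data were seen. Whole retina was measured, so fewer cells that carry a receptor and less RNA per cell cannot be told apart.

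**Figure D2:**
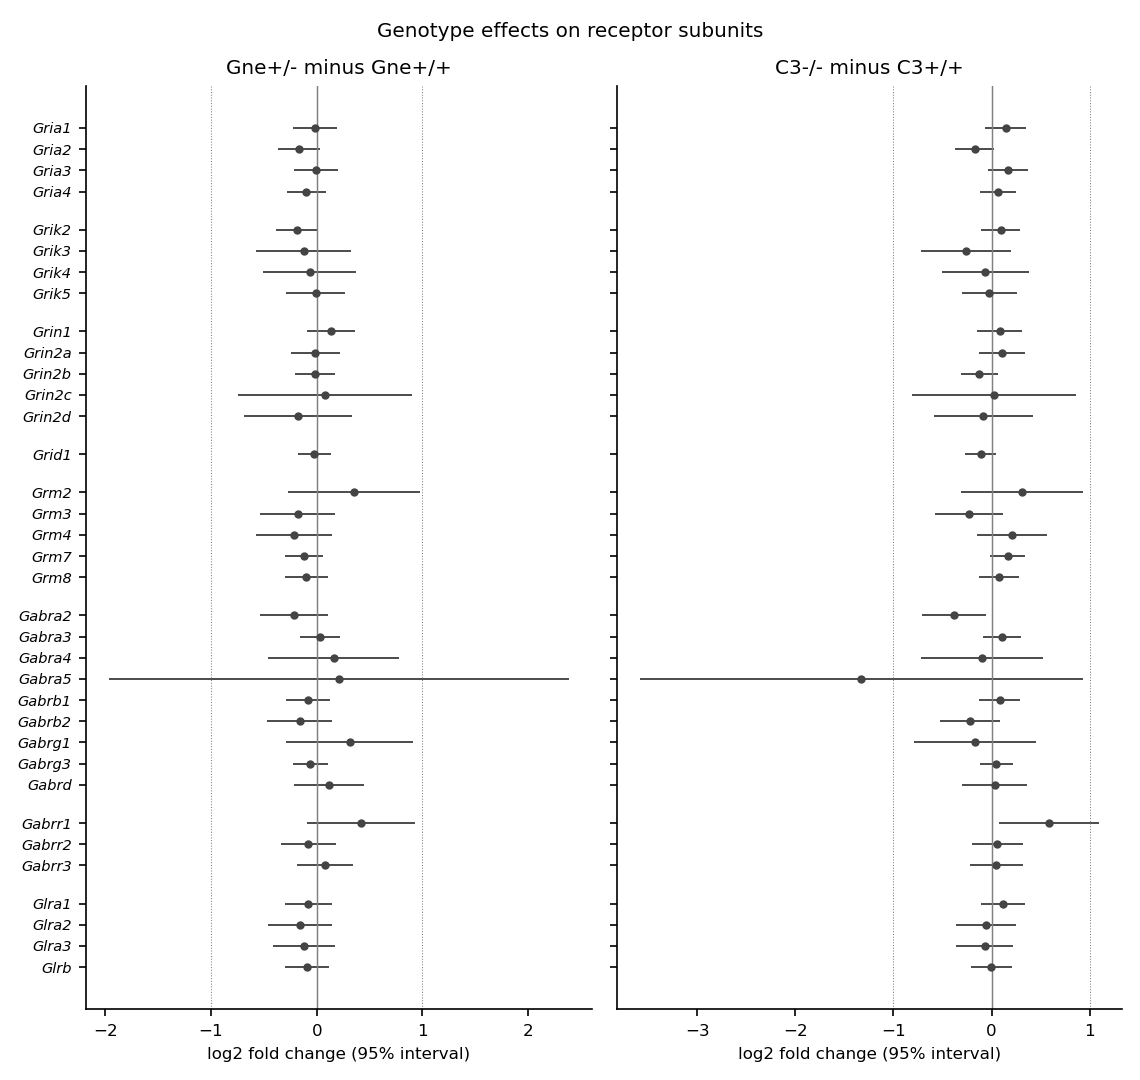
Log2 fold changes of the 35 subunits with 95% intervals, for the Gne effect averaged over both C3 genotypes (left) and the C3 effect averaged over both Gne genotypes (right), with dotted lines at a 2-fold change. All intervals cross 0 except those of Gabra2 and Gabrr1 in the C3 effect, and no difference in either panel passed the adjusted threshold. Gabra5, the subunit with the fewest reads, has the widest interval in both panels.

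Among the ionotropic glutamate receptors, Grik2 came closest to a difference with Gne. It encodes GluK2, a pore-forming kainate subunit, and lies at chr10:49094833-49788766. In run 1 it measured 113, 130.2, 131, 123 and 122 CPM in wildtype and 60.7, 67.3, 92.6, 109 and 99.2 CPM in Gne+/- libraries. In C3-/- libraries it was 106, 124, 114 and 134 CPM, and in Gne+/- C3-/- libraries 118, 106, 119 and 118 CPM. All 5 Gne+/- libraries lay below all 5 wildtype libraries, and Grik2 was the only subunit of 35 without overlap in this comparison, against 0.592% of all genes. In the 4 other genotype comparisons within run 1, 0 of 35 subunits were without overlap. The shares of all genes there were 2.11% for Gne+/- C3-/- against C3-/-, 2.18% for C3-/- against wildtype, 2.4% for Gne+/- C3-/- against Gne+/- and 2.02% for Gne+/- C3-/- against wildtype. Run 2 went the other way, with 117 and 161 CPM in wildtype and 150.2 and 178 CPM in Gne+/- libraries. There the C3-/- libraries measured 141, 155 and 159 CPM and the Gne+/- C3-/- libraries 152 and 124 CPM, and all 4 groups overlapped. The fitted difference over both runs was −0.30 ± 0.135 (log2 ± SE, adjusted p = 0.849). Within run 1 it was −0.51 ± 0.147 (adjusted p = 0.945) and within run 2 it was 0.26 ± 0.175 (adjusted p = 0.787), so the relation does not hold in both runs.

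The lowest Grik2 levels belonged to Gne+/- mice 1 and 2, which stood below the rest of run 1 for many subunits. The summed level of the 35 subunits was 1878 CPM in mouse 1 and 2312 CPM in mouse 2, against 2723 to 3258 CPM in the 16 other libraries of run 1. Mouse 1 lay below every wildtype library of run 1 for 18 of 35 subunits (51.4%, against 15.9% of all tested genes). Mouse 2 did so for 11 of 35 (31.4%, against 15.5%), and Gne+/- mice 3, 4 and 5 for 4, 3 and 4 (against 9.72%, 17.8% and 14.4%). The 4 C3-/- libraries of run 1 did so for 3, 0, 2 and 4 subunits (10.2%, 8.96%, 10.2% and 15.6% of all genes), and the 4 Gne+/- C3-/- libraries for 3, 5, 5 and 8 (11.9%, 9.55%, 10.3% and 11.8%). Relative to the wildtype mean of run 1, mouse 1 held 37.3% for Gabrb2, 35.5% for Glra3, 42.5% for Gabra2, 43.5% for Grm8 and 43.7% for Gria4. Not every subunit was low in this library, since Gabrr1 stood at 271% and Grin1 at 152% of the wildtype mean. This check was chosen after the data were seen.

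In the same libraries the markers of OFF and cone bipolar cells summed to 588 and 675 CPM, against 849 to 1157 CPM in the 16 others. All 7 of those markers (Grik1, Scgn, Vsx1, Neto1, Lhx4, Cabp2 and Erbb4) were detected. Grik1 is itself a kainate receptor subunit and Neto1 a receptor auxiliary subunit. This sum is therefore not a reading of cell content apart from receptor genes. Other retinal cell types were low too. Müller glial markers summed to 4985 and 4876 CPM in mice 1 and 2, below the range of 5163 to 7629 CPM in the 16 others, and horizontal cell markers to 537 and 627 CPM, below 646 to 1005 CPM. Mouse 1 alone lay below the others for ON and rod bipolar markers, with 2489 CPM against 2558 to 3885 CPM, and for amacrine markers, with 1187 CPM against 1280 to 1574 CPM. Erythrocyte markers were low in mouse 2 alone, with 9.26 CPM against 18.7 to 686 CPM. Cone and ganglion cell markers lay inside the range of the others in both mice. The 8 rod markers summed to 63061 and 67335 CPM in mice 1 and 2, inside the range of 42586 to 71508 CPM over run 1. The 11 lens markers summed to 833 and 130 CPM, while Gne+/- mouse 4, with 1769 CPM of lens markers, held 3112 CPM of receptor subunits. The share of genes below every wildtype library grew with gene span. For mouse 1 it was 13.3% of genes under 100 kb, 22.9% from 100 to 200 kb, 35% from 200 to 500 kb and 64.8% of the 233 genes over 500 kb. The subunits below numbered 4 of 14, 4 of 5, 6 of 11 and 4 of 5 in these classes. For mouse 2 the shares of genes were 13.2%, 21.2%, 30.8% and 60.1%. The part of gene span or of cell content (bipolar, horizontal, amacrine and Müller glial cells) in the low subunit levels was not tested.

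**Figure D3:**
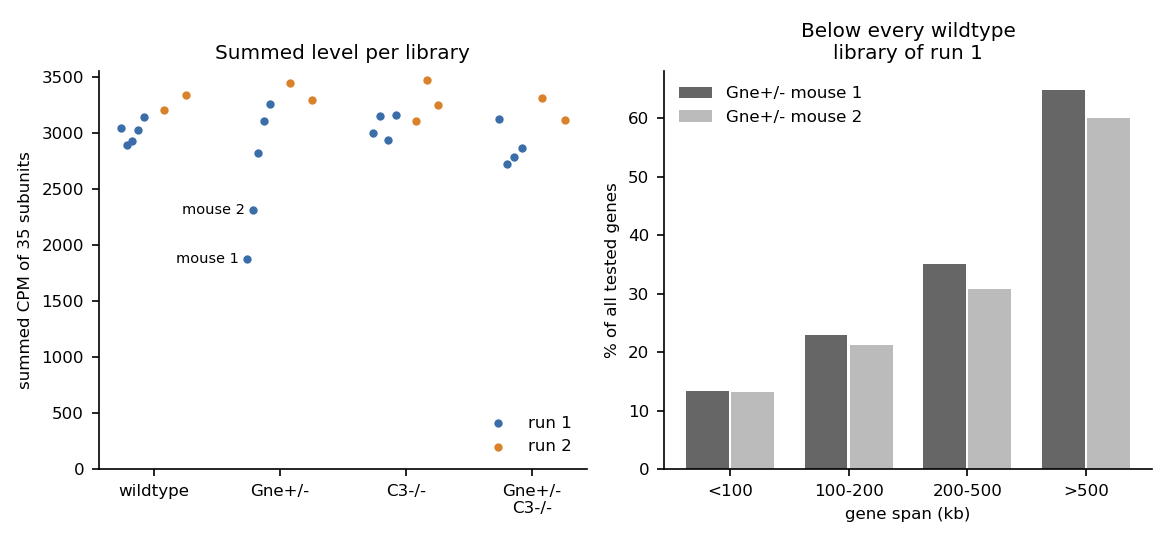
Left, the summed CPM of the 35 subunits in each library by genotype, with the runs in separate colours. Gne+/- mice 1 and 2 stand at 1878 and 2312 CPM, below the other 25 libraries. Right, the share of all tested genes that lay below every wildtype library of run 1 in these mice, by gene span. The share rises from 13.3% and 13.2% of genes under 100 kb to 64.8% and 60.1% of those over 500 kb.

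Without these 2 libraries the direction of the set in Gne+/- against wildtype changed. The median log2 fold change of the 35 subunits was −0.073 with 11 positive, against a median of 0.005 for all tested genes. Leaving both libraries out gave 0.046 with 25 positive, against −0.014 for all genes. In the pooled Gne effect the median was −0.066 with 10 positive, and −0.004 with 16 positive without them. Gne+/- C3-/- against Gne+/- turned from 0.057 to −0.067, the pooled C3 effect from 0.034 to −0.022 and the interaction from 0.011 to −0.091. The direction also differed between the runs. In run 2 alone the median was 0.076 in Gne+/- against wildtype (19 positive) and 0.066 in the pooled Gne effect (20 positive), whereas run 1 alone gave −0.083 and −0.11. The median of the pooled C3 effect was 0.043 in run 1 alone and −0.027 in run 2 alone. Grik2 in Gne+/- against wildtype shrank from −0.30 to −0.10 ± 0.116 (adjusted p = 1) and Gabra2 from −0.41 to −0.25 ± 0.223 (adjusted p = 1). The alternative was chosen after seeing the data and left 0 of 35 subunits called in the 8 comparisons.

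Gria4, which encodes the AMPA subunit GluA4 (chr9:4417896-4796234), had the highest CPM of its class and was even across most libraries. In run 1 it measured 301, 339.5, 309, 309.6 and 292 CPM in wildtype and 136, 222, 308, 295 and 311 CPM in Gne+/- libraries. The C3-/- libraries held 312, 341, 320.1 and 302 CPM, and the Gne+/- C3-/- libraries 316, 302, 303 and 295 CPM. Apart from Gne+/- mice 1 and 2, the libraries of run 1 lay between 292 and 341 CPM. In run 2 the values were 377 and 340.4 CPM in wildtype, 367 and 388 in Gne+/-, 317, 379.7 and 326 in C3-/- and 353 and 348 in Gne+/- C3-/- libraries, and the genotypes overlapped except for Gne+/- C3-/-, which lay below Gne+/-.

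Gria2 encodes GluA2, the AMPA subunit that makes the channel impermeable to calcium (chr3:80681450-80802835). It measured 202, 257, 208, 190.3 and 133 CPM in wildtype and 119, 149, 215, 193 and 165 CPM in Gne+/- libraries of run 1. The C3-/- libraries held 221, 191, 173 and 145 CPM and the Gne+/- C3-/- libraries 191, 162, 142 and 131 CPM. In run 2 the values were 245 and 298 CPM in wildtype, 285 and 281 in Gne+/-, 243, 262 and 218 in C3-/- and 209.9 and 220.5 in Gne+/- C3-/- libraries. The Gne+/- C3-/- libraries lay below wildtype and Gne+/- in run 2 and overlapped both in run 1. Their fitted difference from wildtype was −0.34 ± 0.140 (adjusted p = 0.857), with −0.33 in run 1 alone and −0.32 in run 2 alone.

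Grik3, the kainate subunit GluK3 (chr4:125490700-125714173), was low. In run 1 it measured 6.65, 10.7, 11.4, 3.74 and 6.36 CPM in wildtype and 7.84, 12.2, 7.53, 11.3 and 2.49 CPM in Gne+/- libraries. The C3-/- libraries held 6.46, 11.6, 5.64 and 6.53 CPM and the Gne+/- C3-/- libraries 6.79, 4.63, 4.60 and 3.25 CPM, and the 4 groups overlapped. In run 2 the values were 9.28 and 11.4 CPM in wildtype, 11.4 and 17.7 in Gne+/-, 8.85, 15.9 and 14.9 in C3-/- and 13.0 and 11.5 in Gne+/- C3-/- libraries, and the latter lay just above wildtype. The difference of Gne+/- C3-/- from Gne+/- was −0.58 ± 0.321 (adjusted p = 0.814).

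Grin2b encodes GluN2B, a glutamate-binding NMDA subunit (chr6:135713233-136173511). In run 1 its level was 63.8, 55.0, 55.2, 56.0 and 30.02 CPM in wildtype and 49.2, 56.1, 49.4, 51.5 and 53.9 CPM in Gne+/- libraries. It was 56.1, 55.6, 48.0 and 51.1 CPM in C3-/- and 48.4, 56.6, 45.7 and 44.0 CPM in Gne+/- C3-/- libraries. Apart from 1 low wildtype library the genotypes overlapped. Run 2 gave 109 and 108 CPM in wildtype, 102 and 133 in Gne+/-, 85.6, 105 and 90.4 in C3-/- and 87.5 and 96.5 in Gne+/- C3-/- libraries, all above run 1, with wildtype above both C3-/- groups. Of the other NMDA subunits, Grin1, the obligatory subunit, ranged from 30.3 to 80.4 CPM in run 1 and from 61.9 to 99.0 CPM in run 2, and Grin2c reached at most 11.5 CPM.

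Grid1 encodes the delta receptor GluD1, a synaptic organizer (chr14:34820108-35583379). Its run 1 level was 83.2, 95.3, 85.8, 73.6 and 73.8 CPM in wildtype and 96.6, 101.4, 88.3, 88.4 and 73.7 CPM in Gne+/- libraries. The C3-/- libraries held 83.1, 93.3, 94.4 and 61.1 CPM and the Gne+/- C3-/- libraries 77.9, 68.1, 81.1 and 69.8 CPM, so the groups overlapped. In run 2 the Gne+/- C3-/- libraries, with 123 and 125 CPM, lay below 127 and 137 CPM in wildtype, 163 and 146 in Gne+/- and 139.5, 154 and 149 in C3-/- libraries. Groups of 2 or 3 libraries often separate in this way. Between Gne+/- C3-/- and Gne+/- in run 2, 11 of 35 subunits and 36.2% of all genes did. The counts in run 2 were 13 of 35 (31% of all genes) for Gne+/- against wildtype, 9 of 35 (23.4%) for Gne+/- C3-/- against C3-/-, 9 of 35 (21.1%) for C3-/- against wildtype and 13 of 35 (33.3%) for Gne+/- C3-/- against wildtype. The fitted difference of Gne+/- C3-/- from Gne+/- was −0.28 ± 0.112 (adjusted p = 0.698), with −0.29 in run 1 alone and −0.31 in run 2 alone. The interaction for Grid1 was −0.35 ± 0.155 (adjusted p = 1).

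Among the metabotropic receptors, Grm8 and Grm7 encode mGluR8 and mGluR7, presynaptic receptors that lower transmitter release. Grm8 (chr6:27275119-28135178) measured 560.2, 475, 469.8, 488 and 597 CPM in wildtype and 226, 358, 479, 529 and 623 CPM in Gne+/- libraries of run 1. It was 537, 538, 495 and 543 CPM in C3-/- and 571, 462, 505 and 534 CPM in Gne+/- C3-/- libraries. The spread within Gne+/- spanned that of all other groups of run 1. Run 2 gave 614 and 646 CPM in wildtype, 693 and 668 in Gne+/-, 571, 752 and 712 in C3-/- and 631 and 580.3 in Gne+/- C3-/- libraries, where Gne+/- lay above wildtype and above Gne+/- C3-/-.

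Grm7 (chr6:110645581-111567230) measured 132, 170.3, 139.5, 134 and 99.0 CPM in wildtype and 86.8, 114, 142, 156 and 126 CPM in Gne+/- libraries of run 1. The C3-/- libraries held 192, 159.5, 158 and 143 CPM and the Gne+/- C3-/- libraries 165, 132, 120.0 and 140.2 CPM. In run 2 the values were 251 and 311 CPM in wildtype, 297 and 290.3 in Gne+/-, 296, 338 and 309 in C3-/- and 296 and 279 in Gne+/- C3-/- libraries, and all 9 lay above all 18 of run 1. Within run 1 the genotypes overlapped, and within run 2 they did except for Gne+/- C3-/-, which lay below C3-/-. Gne+/- C3-/- against C3-/- gave −0.19 ± 0.127 (adjusted p = 1).

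**Figure D4:**
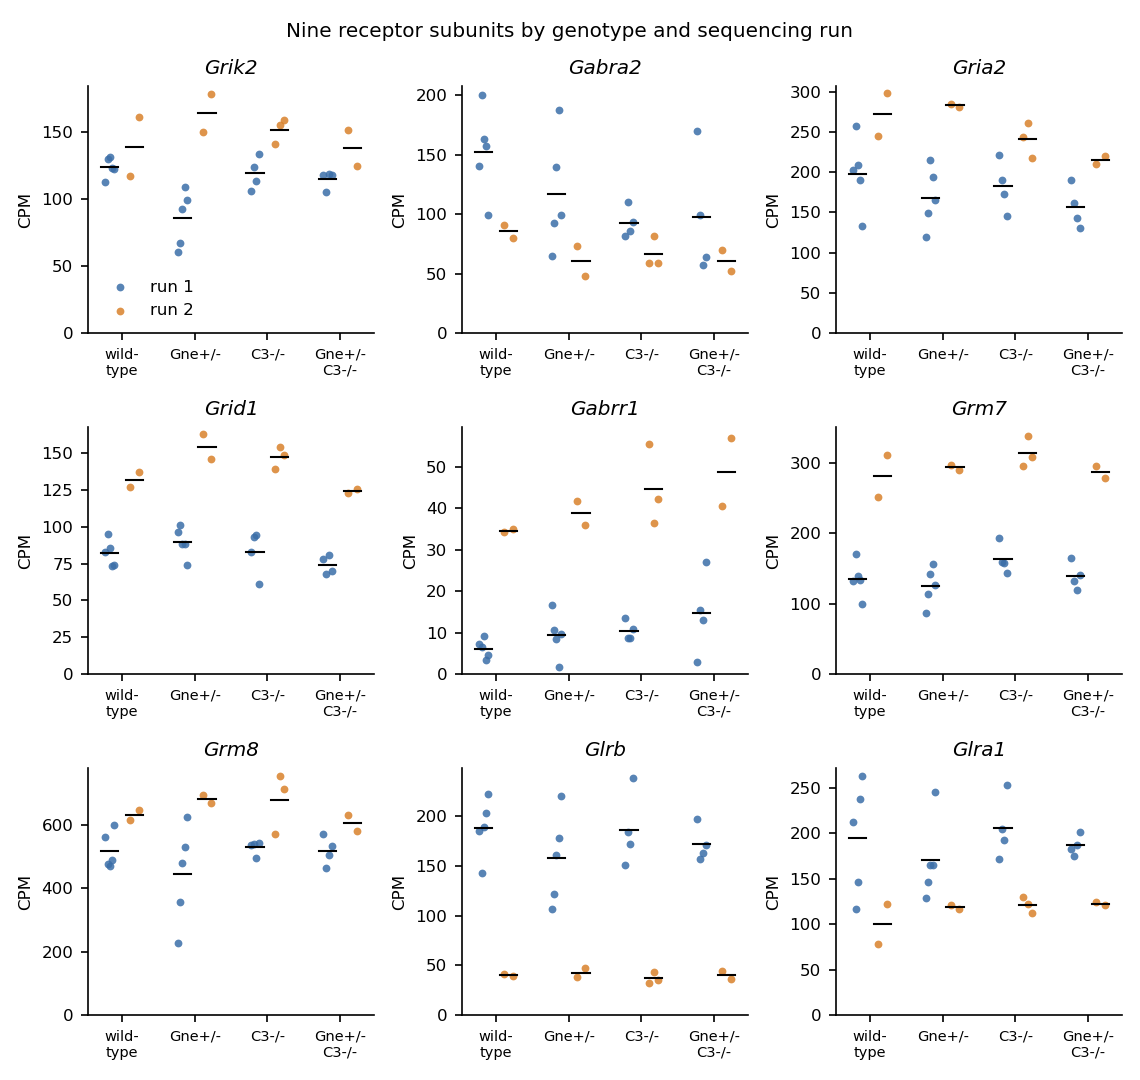
CPM of 9 subunits by genotype, with 1 point per library, the runs in separate colours and a bar at the mean of each genotype and run. Grik2 shows 5 Gne+/- libraries below wildtype in run 1 and not in run 2. Gabra2 has its highest mean in wildtype in both runs, while single wildtype libraries overlap those of other groups. All run 2 libraries lie above those of run 1 for Gabrr1, Grm7 and Grid1 and below them for Glrb.

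Of the GABA-A subunits, Gabra2 came closest to a difference with C3. It encodes the alpha 2 subunit and lies at chr5:70957597-71095849. In run 1 it measured 141, 200.2, 163, 158 and 99.3 CPM in wildtype and 64.7, 92.2, 140.0, 188 and 98.9 CPM in Gne+/- libraries. The C3-/- libraries held 81.9, 110.0, 85.5 and 93.2 CPM and the Gne+/- C3-/- libraries 170.0, 99.1, 56.9 and 63.8 CPM. The wildtype group was highest by its mean and overlapped the others. In run 2 the values were 90.8 and 80.2 CPM in wildtype, 73.4 and 48.1 in Gne+/-, 58.5, 81.8 and 58.6 in C3-/- and 69.5 and 52.2 in Gne+/- C3-/- libraries, with Gne+/- and Gne+/- C3-/- below wildtype. C3-/- against wildtype gave −0.58 ± 0.218 (adjusted p = 0.760), with −0.73 in run 1 alone and −0.35 in run 2 alone. Gne+/- against wildtype gave −0.41 ± 0.215 (adjusted p = 0.860), and Gne+/- C3-/- against wildtype −0.60 ± 0.226 (adjusted p = 0.788). All 3 comparisons share the wildtype libraries.

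Gabrg3, the gamma 3 subunit (chr7:56716465-57387188), had the highest CPM of the GABA-A class and differed little. Run 1 gave 111, 108, 98.0, 120.5 and 125 CPM in wildtype and 82.0, 96.2, 113, 139 and 119 CPM in Gne+/- libraries. It was 101.1, 119.7, 117 and 136 CPM in C3-/- and 127, 82.7, 114 and 116 CPM in Gne+/- C3-/- libraries. Run 2 gave 133 and 127 CPM in wildtype, 125 and 111 in Gne+/-, 129, 126 and 131 in C3-/- and 141 and 123 in Gne+/- C3-/- libraries. Within run 2, Gne+/- lay below wildtype and C3-/- and overlapped Gne+/- C3-/-. The ranges of run 2 and run 1 overlapped.

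Gabra5, the alpha 5 subunit (chr7:57407672-57510059), shares 90.5% of its span with other annotated genes and held between 0 and 34 counts per library. Among run 1 libraries it was 0.950, 0.181, 0, 1.43 and 1.30 CPM in wildtype and 0.309, 0, 0.615, 0 and 0 CPM in Gne+/- libraries. In C3-/- it was 0, 0.0766, 0.286 and 0 CPM and in Gne+/- C3-/- 0, 0, 0 and 0.212 CPM. In run 2 it was 0 and 0 CPM in wildtype, 0.466 and 0.325 in Gne+/-, 0, 0.193 and 0 in C3-/- and 0.887 and 1.33 in Gne+/- C3-/- libraries. The highest value of run 1 was in wildtype, and both wildtype libraries of run 2 were at 0. The fitted C3-/- difference from wildtype was −2.99, with a 95% interval from −6.09 to 0.10, and it turned to 3.88 in run 2 alone (adjusted p = 0.906). Gabra4, Gabrg1 and Gabrd were also low, with run 1 medians of 4.14, 3.52 and 11.1 CPM.

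The GABA rho subunits form the receptors long described as GABA-C. Gabrr1 (chr4:33132521-33163588) encodes rho 1 and measured 7.21, 6.47, 9.23, 3.28 and 4.48 CPM in wildtype and 16.6, 10.6, 8.40, 1.72 and 9.60 CPM in Gne+/- libraries of run 1. It was 13.5, 8.57, 8.65 and 10.8 CPM in C3-/- and 2.91, 15.6, 13.1 and 27.1 CPM in Gne+/- C3-/- libraries. Run 2 gave 34.3 and 34.95 CPM in wildtype, 41.7 and 35.9 in Gne+/-, 55.5, 36.4 and 42.3 in C3-/- and 40.5 and 56.8 in Gne+/- C3-/- libraries. Wildtype was lowest by its mean in both runs, overlapping all groups in run 1 and lying below all groups in run 2. Gne+/- C3-/- against wildtype gave 1.01 ± 0.359 (adjusted p = 0.668), with 1.27 in run 1 alone and 0.50 in run 2 alone. Without the filter on low counts this difference passed the threshold, with 1.01 (adjusted p = 0.0224).

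Gabrr2 (chr4:33062999-33095865) encodes rho 2 and measured 106, 55.6, 120.3, 107 and 156 CPM in wildtype and 80.4, 77.8, 108, 78.1 and 132 CPM in Gne+/- libraries of run 1. It was 124, 116, 94.0 and 91.3 CPM in C3-/- and 68.1, 92.6, 133 and 151 CPM in Gne+/- C3-/- libraries. In run 2 it was 190.1 and 164 CPM in wildtype, 179 and 122 in Gne+/-, 182, 151 and 154 in C3-/- and 187 and 138 in Gne+/- C3-/- libraries, and the genotypes overlapped in both runs.

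The glycine receptor subunits were Glra1 to Glra3, which bind glycine, and Glrb, which anchors the receptor to gephyrin at the synapse. Glra1 (chr11:55514238-55608198) measured 212, 117, 146, 238 and 263 CPM in wildtype and 129, 147, 166, 165 and 246 CPM in Gne+/- libraries of run 1. It was 172, 204, 193 and 254 CPM in C3-/- and 183, 175, 188 and 202 CPM in Gne+/- C3-/- libraries. Run 2 gave 78.2 and 123 CPM in wildtype, 121 and 117 in Gne+/-, 130.4, 122 and 112 in C3-/- and 124 and 121 in Gne+/- C3-/- libraries, and wildtype overlapped every other genotype in both runs. In the pooled Gne effect the 4 glycine subunits lay between −0.16 and −0.08, and none passed the test. Without Gne+/- mice 1 and 2 they lay between −0.11 and −0.00067.

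By class, the median log2 fold change in the pooled Gne effect was −0.06 for AMPA, −0.09 for kainate, −0.01 for NMDA, −0.12 for metabotropic, 0.03 for GABA-A, 0.08 for rho and −0.10 for glycine receptor genes, against 0.00169 for all tested genes. In the pooled C3 effect the class medians were 0.10, −0.04, 0.03, 0.16, −0.10, 0.06 and −0.03 in the same order, against −0.00267 for all tested genes. Without Gne+/- mice 1 and 2 the medians in the pooled Gne effect were 0.02, −0.02, −0.01, −0.06, 0.08, 0.11 and −0.02, so that of AMPA changed sign and those of kainate, metabotropic and glycine genes shrank. In the pooled C3 effect they were 0.03, −0.12, −0.06, 0.10, −0.02, 0.02 and −0.09 without these libraries, and that of NMDA changed sign. Each class holds 3 to 9 genes, and these medians are a description only.

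The sequencing run separated the subunits far more than the genotype did. With genotype in the model, 27 of 35 subunits (77.1%) differed between run 2 and run 1 at an adjusted p under 0.05, against 59.5% of all tested genes. Of the 27, 18 were higher in run 2, where 30.3% of all genes were, and 9 were lower, where 29.2% of all genes were. At an unadjusted p under 0.05 the count was 30 of 35, against 63% of all genes. The median log2 fold change was 0.38 for the subunits and 0.04 for all genes. The median SE was 0.140 for the subunits and 0.238 for all genes, so a difference of the same size passes more easily among the subunits. The ranges of the runs did not overlap for 7 of 35 subunits (20%), close to the 21.9% of all genes.

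Receptor genes for excitation and inhibition were found on both sides. Glrb (chr3:80843599-80913660) was lower in run 2, with a log2 fold change of −2.14 ± 0.121 (SE, adjusted p = 1.28e-16). Its level ranged from 106.9 to 238 CPM with a median of 175 CPM in the 18 libraries of run 1. In the 9 of run 2 it ranged from 32.0 to 46.8 CPM with a median of 39.3 CPM. Grm4, which encodes mGluR4, fell by 1.70 log2 units (SE 0.204, adjusted p = 8.05e-09), from a median of 40.8 to 13.2 CPM. Grin2d, an NMDA subunit whose 3′ end overlaps another gene, fell by 1.53 (SE 0.285, adjusted p = 2.12e-05), from a median of 11.8 to 4.1 CPM with overlapping ranges.

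Gabrr1 rose most, by 2.11 (SE 0.254, adjusted p = 1.68e-08), from a median of 8.94 to 40.5 CPM. Grm7 rose by 1.07 (SE 0.0902, adjusted p = 2.85e-12) and Grin2b by 0.99 (SE 0.0964, adjusted p = 7.66e-11). By class, 3 of 4 AMPA, 3 of 4 kainate, 3 of 5 NMDA, 3 of 5 metabotropic, 3 of 9 GABA-A and 2 of 3 rho subunits and Grid1 were higher. Lower were 3 of 4 glycine, 2 of 9 GABA-A, 2 of 5 metabotropic, 1 of 4 kainate and 1 of 5 NMDA subunits.

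**Figure D5:**
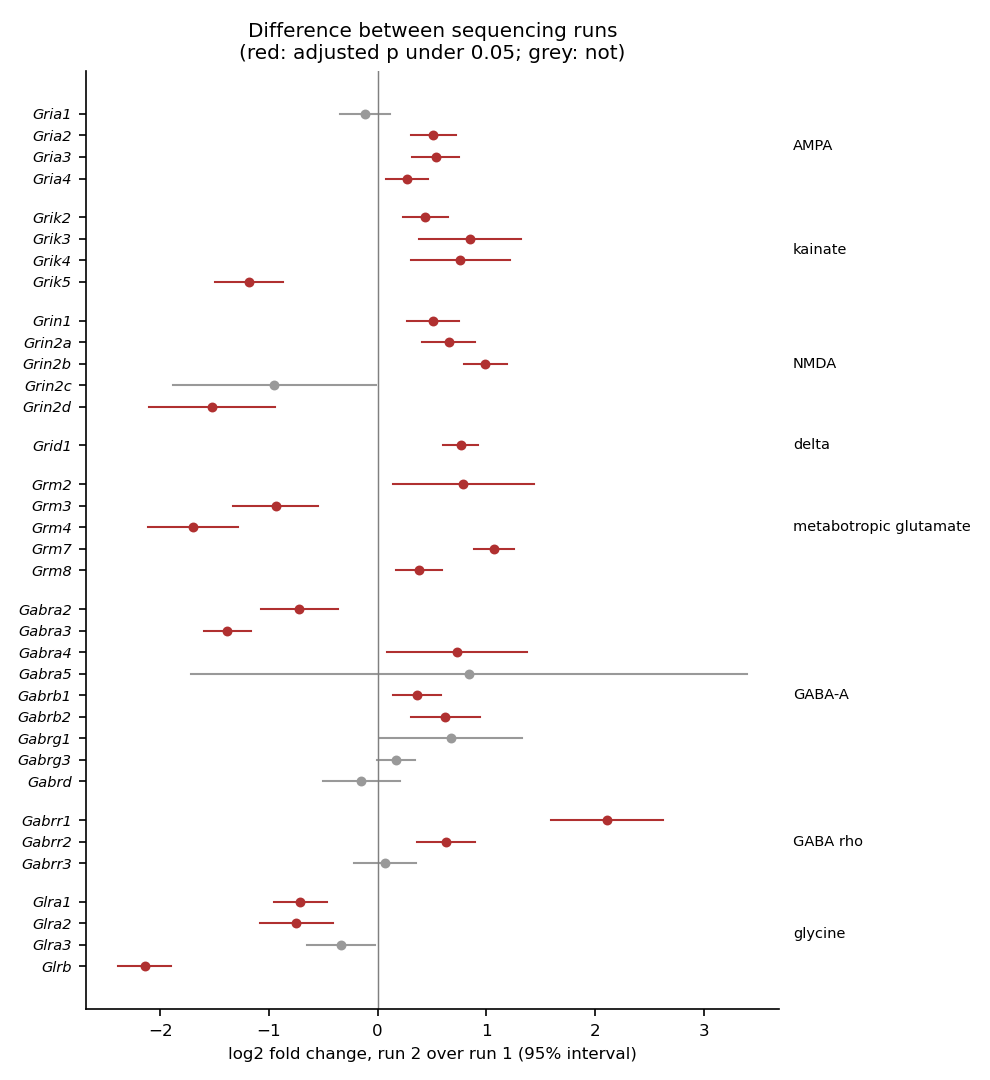
Log2 fold change of each subunit between run 2 and run 1 with its 95% interval, by receptor class, red where the adjusted p is under 0.05. Of 35 subunits 27 are red, 18 to the right of 0 and 9 to the left, from Glrb at −2.14 to Gabrr1 at 2.11.

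Summed cell markers differed between the runs too. The 8 rod markers summed to 42586 to 71508 CPM in run 1 and to 26565 to 34213 CPM in run 2. The summed OFF and cone bipolar markers were 588 to 1157 CPM in run 1 and 531 to 695 CPM in run 2. Sums for horizontal cells (537 to 1005 against 193 to 278 CPM), cones, ganglion, amacrine and Müller glial cells were lower in run 2 without overlap. Single markers did not all follow the sums. Past the threshold, 0 of 8 rod markers were higher and 5 lower. For OFF and cone bipolar cells 2 of 7 were higher and 4 lower. For amacrine cells 3 of 8 tested were higher and 4 lower, beside 30.3% and 29.2% of all genes. Gene span also differed along with the run difference. The median log2 fold change over all genes was −0.06 under 100 kb, 0.26 from 100 to 200 kb, 0.35 from 200 to 500 kb and 0.38 over 500 kb. For the subunits it was −0.04 (14 genes), −0.33 (5), 0.53 (11) and 0.44 (5). The part of cell content, gene span or library handling in the run difference was not tested. The span classes were chosen after the data were seen.

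Neighbouring subunit genes did not always move alike between the runs. The pairs given here hold Glrb and Gabrr1, the largest fall and the largest rise. Other neighbours are not given, namely Gabrg1, Gabra2, Gabra4 and Gabrb1 on chromosome 5 and Gabrg3 and Gabra5 on chromosome 7. Gria2 and Glrb lie 40.8 kb apart on the minus strand of chromosome 3, with log2 fold changes of 0.51 and −2.14. Gabrr2 and Gabrr1 lie 36.7 kb apart on the plus strand of chromosome 4, with 0.63 and 2.11. The 250 bases before the RefSeq start sites (GRCm38.p6, strand of the gene, 5′ to 3′) are shown for these 4 neighbouring genes and for Gabra2, the subunit with the smallest p in the pooled C3 effect. Capitals mark TAATCC on either strand, the core bound by the photoreceptor and bipolar cell factors CRX and OTX2, and lower case marks all other bases.
Gria2, chr3:80802836-80803085, minus: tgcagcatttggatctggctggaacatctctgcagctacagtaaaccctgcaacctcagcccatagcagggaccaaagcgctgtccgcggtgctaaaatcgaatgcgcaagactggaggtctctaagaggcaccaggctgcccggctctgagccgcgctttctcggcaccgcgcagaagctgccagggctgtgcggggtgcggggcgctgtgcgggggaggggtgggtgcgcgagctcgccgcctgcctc
Glrb, chr3:80913661-80913910, minus: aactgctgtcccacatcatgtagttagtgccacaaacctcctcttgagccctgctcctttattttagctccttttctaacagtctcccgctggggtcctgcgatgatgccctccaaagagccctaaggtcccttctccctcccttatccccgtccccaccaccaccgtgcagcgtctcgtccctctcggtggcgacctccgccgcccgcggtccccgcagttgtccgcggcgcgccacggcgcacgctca
Gabrr1, chr4:33132306-33132555, plus: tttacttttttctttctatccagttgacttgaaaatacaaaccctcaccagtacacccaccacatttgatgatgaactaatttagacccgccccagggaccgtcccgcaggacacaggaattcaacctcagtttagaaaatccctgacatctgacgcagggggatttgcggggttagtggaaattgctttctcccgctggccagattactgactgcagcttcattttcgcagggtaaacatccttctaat
Gabrr2, chr4:33062862-33063111, plus: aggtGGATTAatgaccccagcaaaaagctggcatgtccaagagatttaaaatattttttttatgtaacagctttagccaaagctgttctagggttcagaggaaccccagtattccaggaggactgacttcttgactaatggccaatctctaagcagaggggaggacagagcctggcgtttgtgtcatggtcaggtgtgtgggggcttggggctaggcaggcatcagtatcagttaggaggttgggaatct
Gabra2, chr5:71095850-71096099, minus: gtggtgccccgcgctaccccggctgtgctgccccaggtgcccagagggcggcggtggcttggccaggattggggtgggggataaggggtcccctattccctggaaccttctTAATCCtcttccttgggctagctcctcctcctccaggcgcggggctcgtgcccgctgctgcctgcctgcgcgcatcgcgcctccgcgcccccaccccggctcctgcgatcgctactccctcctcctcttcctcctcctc
The GC content of these windows was 64.8% for Gria2, 62.4% for Glrb, 46% for Gabrr1, 47.6% for Gabrr2 and 70% for Gabra2. TAATCC occurred on either strand in 2 of 34 windows of the 27 matched subunits (5.88%), those of Gabra2 and Gabrr2, against 6.25% of 32851 windows of all genes. TTCAGCACC, a part of the site of the neuronal repressor REST, occurred in 1 of 34 (2.94%), that of Grm2, against 0.301% of all windows. Both motifs and the 5 promoters were chosen with the values known, and the matches are a description of these letters only.

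Pairs of subunits were compared across the 18 libraries of run 1 on log2(CPM + 1), leaving out Gabra5, which was near 0. Of 561 pairs among 34 subunits, 61 had a Pearson r with a permutation p under 0.05 after Benjamini-Hochberg adjustment, 52 positive and 9 negative, and 21 of them also by Spearman's rho. Without Gne+/- mice 1 and 2, 14 pairs did (10 positive, 4 negative), 13 of them among the 61. An r of 0.6 or over in size, a limit chosen after the data were seen, was reached by 65 of the 561 pairs (11.6%), against 6.23% of all pairs of tested genes, and without these 2 libraries by 46 (8.2%), against 6.83%. The pairs named here are extremes of the 561 and were chosen for that. The highest r was that of Grm8 and Gabrb1, which encodes the GABA-A beta 1 subunit. It was 0.948 (p = 1e-05, adjusted p = 0.00187) with a rho of 0.775 (p = 0.00028, adjusted p = 0.0184), and r was 0.752 without the 2 libraries farthest from the median of Grm8, which were Gne+/- mice 1 and 2. In run 2 it was 0.744 (exact permutation p = 0.0183, not adjusted). Grm4 and Glrb gave r = 0.895 (p = 1e-05, adjusted p = 0.00187) and rho = 0.915 (p = 1e-05, adjusted p = 0.00561), the smallest p that 100000 permutations can give. Without the 2 libraries farthest from the median of Grm4, r was 0.854. In the 9 libraries of run 2 it was −0.079 (exact permutation p = 0.839), so the relation does not hold there.

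Gria1 and Grid1 gave r = −0.812 (p = 5e-05, adjusted p = 0.00255) and rho = −0.814 (p = 0.000115, adjusted p = 0.0129). Without the 2 farthest libraries r was −0.750, and in run 2 it was 0.161 (exact permutation p = 0.679), so this relation was not seen there either. Gria1 and Grm4 gave r = 0.888 (p = 1e-05, adjusted p = 0.00187) and rho = 0.833 (p = 2e-05, adjusted p = 0.00561), with 0.802 without the 2 farthest and −0.158 in run 2 (exact permutation p = 0.679). Gabra2 and Gabrr1 gave r = −0.768 (p = 0.000185, adjusted p = 0.00692) and rho = −0.831 (p = 3.5e-05, adjusted p = 0.00655), with −0.750 without the 2 farthest. In run 2 their r was −0.568 (exact permutation p = 0.119). In run 1 wildtype had the highest mean of Gabra2 and the lowest mean of Gabrr1. The part of genotype in this r was not tested. The pair of Gria4 and Grm8 rested on Gne+/- mice 1 and 2: r was 0.896 (p = 0.00275, adjusted p = 0.0376) with a rho of 0.222 (p = 0.374, adjusted p = 0.680), and r was −0.214 without these libraries.

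The wider pathway was taken from 3 fixed lists. Of 14 tested receptor genes outside the set, 0 were called in each genotype comparison, and of these Grik1, a kainate subunit of OFF bipolar cells, gave −0.29 ± 0.131 (adjusted p = 0.849) in Gne+/- against wildtype. Of 41 auxiliary, anchoring and scaffold genes, 0 were called in each, and Dlg2, which encodes the scaffold PSD-93, gave 0.26 ± 0.0804 (adjusted p = 0.219) in the pooled C3 effect. Of 24 genes for transmitter synthesis, vesicular loading and uptake, 0 were called in each. Gad2, which makes GABA, gave −0.42 ± 0.161 (adjusted p = 0.849), and Slc17a8, a vesicular glutamate transporter of some amacrine cells, −0.49 ± 0.171 (adjusted p = 0.849) in Gne+/- against wildtype. Gad1, the other enzyme that makes GABA, had the most negative values of this list for loss of C3. It gave −0.91 ± 0.419 (adjusted p = 0.623) in the pooled C3 effect and −1.10 ± 0.602 (adjusted p = 0.814) in Gne+/- C3-/- against Gne+/-. Without the filter on low counts both passed the threshold, with adjusted p = 1.08e-07 and 3.71e-05, and under the 38 other alternatives the pooled value ranged from −1.32 to −0.02 with adjusted p from 0.367 to 1. Gad1 was named after its values were seen. Between the runs 3 of 14 were higher and 6 lower, 20 of 41 higher and 11 lower, and 9 of 24 higher and 10 lower, beside 30.3% of all genes higher and 29.2% lower.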

How the data were processed

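Raw counts per gene were made by the authors and deposited without normalization. The submitters' processing notes name the aligner STAR 2.7.3a, the counter featureCounts, Subread 2.0.0 and the genome build GRCm38, also called mm10. The counting version was 2.0.3 with Ensembl release 101, over exon and whole-gene features with no strand setting, per the file headers. Reads in introns therefore count, and reads where annotated genes overlap are dropped. The counts of the 27 single libraries equalled the series table.

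The analysis used edgeR 4.0.16 under R 4.3.3. It applied filterByExpr by group with a minimum count of 10 (17409 genes kept), TMM factors, and the robust quasi-likelihood test with genotype group and sequencing run as terms (22 residual degrees of freedom). Benjamini-Hochberg adjustment ran over all tested genes, with a threshold of 0.05. Pooled effects are means of the 2 simple effects. Standard errors were derived from the F statistic. Alternatives were DESeq2 1.42.0, limma-voom 3.58.1 with quality weights, RLE factors, no filter or over 1 CPM in at least 6 libraries, estimation that was not robust, the mouse number as a block, the run term left out, single runs, and single libraries left out. Leaving out Gne+/- mice 1 and 2 and a Y-linked covariate were added after seeing the data. The subunits, lists and tests were chosen with earlier results of these data known. Full values were given for the subunit with the highest CPM of each class and the 2 with the smallest p per genotype comparison, the 3 largest rises and falls between runs, and up to 2 genes per pathway list.

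On simulated counts over 17409 genes, 32% of 2-fold and 67% of 4-fold changes were recovered for Gne+/- against wildtype. For C3-/- against wildtype 35% and 63% were recovered, and for the pooled Gne effect 52% and 77%. In each simulation 100 genes per fold were changed, drawn from all tested genes. The adjusted threshold is easier to pass when many genes change, so these shares do not give the chance of finding a changed subunit. Among the unchanged genes of these simulations 5, 3 and 2 were called, in the same order. In a separate simulation without any changed gene, 0 genes were called. Over 78 library pairs of a group the chi-square per degree of freedom was at least 9.77, so none was a duplicate. Promoter sequences are from RefSeq (GRCm38.p6).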

Additional observations from a re-analysis of the deposited data

Results flagged for a closer look

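Of 72 sets of 4 or 5 libraries (17 named subunits by genotype in run 1, and the summed level of the set) tested for a library far from the rest, 5 held one, and chance flags about 1 in 20. Grin2b was 30.02 CPM in wildtype mouse 6, against 55.04 to 63.82 CPM in the other wildtype libraries of run 1. Grm8 was 494.7 CPM in C3-/- mouse 5, against 536.8 to 542.6 CPM. Grik2 was 105.5 CPM in Gne+/- C3-/- mouse 4, against 117.7 to 119.0 CPM. Grik3 was 11.56 CPM in C3-/- mouse 2, against 5.645 to 6.526 CPM. Gabra5 was 0.2117 CPM in Gne+/- C3-/- mouse 6, where the other 3 libraries of the group were at 0. With these at 0, any level above 0 would have been flagged, so this flag carries no information.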

How the results depend on the processing

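Of 2575 recomputed values, 2556 stayed on their side of the threshold and within the tolerance set for them, and 19 did not. For the median of the subunits the tolerance was the median SE of the subunits, so a change of sign could count as kept. Leaving out any of the 27 libraries moved no count of subunits past the threshold (0 to 0 in each genotype comparison). In Gne+/- C3-/- against wildtype, 1 subunit passed without a low-count filter (Gabrr1, 1.01, adjusted p = 0.0224, where 0.401% of all genes passed) and 1 with the mouse number as replicate block (Gabra2, −0.83, adjusted p = 0.0422, where 0.138% did). Of 31 same-numbered pairs, 4 had deviations correlated over 0.1 (−0.160 to 0.256), so the mouse numbers do not pair the samples. Without the low-count filter, 2 of 41 scaffold genes (Nlgn2 and Nsf) and 2 of 24 transmitter genes (Gad1 and Abat) passed in Gne+/- C3-/- against Gne+/- and again in the pooled C3 effect, where limma-voom passed 1 scaffold gene (Dlg2, 0.28). The shares of all genes without the filter were 1.04% and 1.52% in these comparisons, and 1.04% by limma-voom in the pooled C3 effect. In run 2 alone, Grik2 turned to 0.26 in Gne+/- against wildtype and to 0.063 in the pooled Gne effect, and Gabra5 turned to 3.88 in C3-/- against wildtype and to −2.41 in the interaction. The median of the 35 subunits changed sign under 1 or more alternatives in all 8 genotype comparisons, among them Gne+/- against wildtype and the pooled Gne effect in run 2 alone (0.076 and 0.066) and the pooled C3 effect in run 2 alone (−0.027) and without Gne+/- mice 1 and 2 (−0.022). The cause was not tested. On raw library totals the mean summed CPM of the subunits was 2811.7 in wildtype and 2903.9 in C3-/- of run 1, while for run 2 wildtype gave 3526, Gne+/- 3698, C3-/- 3564 and Gne+/- C3-/- 3597 CPM. Gabra5, Grin2c, Grm2, Gabrg1 and Gabra4 had the lowest mean CPM, so depth limits them most. PCR reads carry no molecular identifiers, so counting error understates their spread.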
